A study of Mus musculus with 8 samples.

Results

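The H3K27ac Cut & Tag lists of differentiated BAC held 371 narrow regions at gene ends, out of 1208 regions made by merging the peaks of 4 libraries. A region was chosen by 3 properties of the merged peaks: it lay on chromosomes 1 to 19, it was 10000 bp wide or less, and it lay within 3000 bp of either end of a protein-coding gene of GRCm38 (mm10). Of the other 837 regions, 346 were narrow but away from gene ends, 285 were wide and autosomal, and 206 lay on other chromosomes or contigs. Since presence in at least 1 list and width selected the regions, their numbers, widths and folds are given as a description of the lists.

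Cut & Tag uses an antibody in permeabilized cells to guide a transposase, which cuts the DNA beside the antigen and adds sequencing adapters to it. BAC are brown preadipocytes from the interscapular fat of newborn *Cars2* flox/flox mice that were immortalized with the SV40 large T antigen, infected with an empty retrovirus (Vec, labelled BAC-V and wild type) or one carrying Cre (Cre, labelled BAC-Cre and CarS2-KO), and differentiated with IBMX, indomethacin, dexamethasone, insulin and T3. Both groups thus came from floxed cells with the large T antigen, with the allele recombined by Cre in the Cre group, and both were selected with hygromycin. With 50000 cells per sample, there were 2 Vec and 2 Cre libraries for H3K27ac and 2 and 2 for EBF2, 8 in all. Nothing in the labels says that the 2 libraries of a group came from separate cultures, so that the tests below measure the spread between these libraries.

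Acetylation of lysine 27 on histone H3 marks the nucleosomes that flank active promoters and enhancers. At the start of an expressed gene it typically forms a compact block on both sides of the nucleosome-free start site, and such starts often lie in CpG islands, stretches of high GC content in which the CG dinucleotide was not depleted by methylation. EBF2 is a transcription factor of the brown adipocyte lineage. The study asked whether EBF2 binding and H3K27ac at promoters differ between Vec and Cre cells, and *Cars2*, the mitochondrial cysteinyl-tRNA synthetase that Cre removes, had 0 peaks within 3 kb of its ends (chr8:11514017-11550781) in each of the 8 lists, which can therefore not check the deletion.

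Sequences of a few promoters under narrow regions follow. Each is a RefSeq window of 300 bp on GRCm38.p6, from 250 bases before to 50 after the gene start, printed 5′ to 3′ on the strand of the gene with every CG in capitals. The starts of *Ube3a* (chr7:59228500-59228799, plus strand), *Rnf4* (chr5:34336000-34336299, plus strand) and the divergent pair *Hdlbp* (chr1:93478328-93478627, minus strand) and *Septin2* (chr1:93478743-93479042, plus strand) are shown because their regions were in all 4 H3K27ac lists.
Ube3a: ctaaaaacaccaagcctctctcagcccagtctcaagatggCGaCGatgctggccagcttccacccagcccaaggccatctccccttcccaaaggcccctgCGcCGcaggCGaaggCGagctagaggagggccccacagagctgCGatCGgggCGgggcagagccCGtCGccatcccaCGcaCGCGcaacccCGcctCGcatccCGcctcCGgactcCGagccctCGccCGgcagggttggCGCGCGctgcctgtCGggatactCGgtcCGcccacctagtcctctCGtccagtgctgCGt
Rnf4: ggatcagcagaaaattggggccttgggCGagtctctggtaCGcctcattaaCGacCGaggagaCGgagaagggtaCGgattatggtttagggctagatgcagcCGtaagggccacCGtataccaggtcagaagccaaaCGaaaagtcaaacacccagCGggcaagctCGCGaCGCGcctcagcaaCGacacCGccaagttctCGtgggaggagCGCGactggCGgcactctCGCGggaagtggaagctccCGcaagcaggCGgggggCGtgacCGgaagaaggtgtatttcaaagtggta
Hdlbp: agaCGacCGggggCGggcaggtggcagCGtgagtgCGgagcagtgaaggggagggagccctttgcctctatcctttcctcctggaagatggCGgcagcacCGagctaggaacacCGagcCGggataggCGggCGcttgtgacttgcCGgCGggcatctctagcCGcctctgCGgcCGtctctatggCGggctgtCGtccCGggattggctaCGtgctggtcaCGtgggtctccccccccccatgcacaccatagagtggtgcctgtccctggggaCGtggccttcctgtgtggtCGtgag
Septin2: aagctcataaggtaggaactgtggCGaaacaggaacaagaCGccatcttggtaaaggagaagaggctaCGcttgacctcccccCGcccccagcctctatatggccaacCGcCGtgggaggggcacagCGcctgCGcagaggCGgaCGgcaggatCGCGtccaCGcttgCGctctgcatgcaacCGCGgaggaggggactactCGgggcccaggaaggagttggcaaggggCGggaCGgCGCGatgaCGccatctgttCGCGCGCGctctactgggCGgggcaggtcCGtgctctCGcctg

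*Ppp4r3b* (chr11:29172726-29173025, plus strand) stood under a region found in both Vec lists only, and *Ascc3* (chr10:50592419-50592718, plus strand) and the overlapping, divergent starts of *Cdc26* (chr4:62408576-62408875, minus strand) and *Prpf4* (chr4:62408533-62408832, plus strand) under regions found in both Cre lists only. *Cd59a* (chr2:104095551-104095850, plus strand), in a region of 4088 bp that was also found in both Cre lists only, is shown for contrast.
Ppp4r3b: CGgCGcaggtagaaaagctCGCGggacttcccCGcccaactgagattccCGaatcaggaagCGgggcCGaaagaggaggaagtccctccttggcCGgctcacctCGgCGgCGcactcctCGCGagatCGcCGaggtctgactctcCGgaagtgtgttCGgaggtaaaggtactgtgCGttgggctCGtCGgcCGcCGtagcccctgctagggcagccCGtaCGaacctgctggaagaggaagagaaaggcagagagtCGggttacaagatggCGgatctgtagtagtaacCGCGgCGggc
Ascc3: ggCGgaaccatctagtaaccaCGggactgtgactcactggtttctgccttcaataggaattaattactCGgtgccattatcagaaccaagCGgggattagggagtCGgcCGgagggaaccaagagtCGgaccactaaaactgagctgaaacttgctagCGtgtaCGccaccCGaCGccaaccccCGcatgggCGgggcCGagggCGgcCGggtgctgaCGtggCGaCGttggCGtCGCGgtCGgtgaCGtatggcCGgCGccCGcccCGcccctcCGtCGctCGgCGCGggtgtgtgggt
Cdc26: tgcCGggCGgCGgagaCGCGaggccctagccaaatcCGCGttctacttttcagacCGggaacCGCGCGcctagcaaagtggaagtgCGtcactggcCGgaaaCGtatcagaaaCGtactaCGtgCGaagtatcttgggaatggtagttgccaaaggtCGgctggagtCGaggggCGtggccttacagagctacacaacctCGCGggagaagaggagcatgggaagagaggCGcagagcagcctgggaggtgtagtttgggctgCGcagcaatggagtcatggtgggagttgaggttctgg
Prpf4: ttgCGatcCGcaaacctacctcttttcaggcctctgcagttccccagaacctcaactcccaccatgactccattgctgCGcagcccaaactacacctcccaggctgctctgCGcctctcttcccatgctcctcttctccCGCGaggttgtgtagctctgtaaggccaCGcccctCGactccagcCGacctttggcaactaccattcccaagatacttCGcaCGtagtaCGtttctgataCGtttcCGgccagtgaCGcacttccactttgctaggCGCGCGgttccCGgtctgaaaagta
Cd59a: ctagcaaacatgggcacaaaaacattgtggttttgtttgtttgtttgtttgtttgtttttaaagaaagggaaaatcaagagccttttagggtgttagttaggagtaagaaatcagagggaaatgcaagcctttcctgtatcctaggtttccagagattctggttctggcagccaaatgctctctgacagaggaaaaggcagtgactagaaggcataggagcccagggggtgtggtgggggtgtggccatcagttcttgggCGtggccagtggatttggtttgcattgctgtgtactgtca

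The *Ube3a*, *Rnf4*, *Hdlbp* and *Septin2* windows held 29, 26, 23 and 29 CGs, and those of *Ppp4r3b*, *Ascc3*, *Cdc26* and *Prpf4* held 30, 33, 24 and 19. The *Cd59a* window held 1. The ratio of observed CGs to the number that the C and G content of the window would give was 0.84 for *Ube3a*, 1.02 for *Rnf4*, 1.02 for *Ppp4r3b*, 1.09 for *Ascc3* and 0.07 for *Cd59a*. Among the other windows at named regions, that of *2610001J05Rik*, whose region was in all 4 lists, held 11 CGs with a ratio of 0.63, and that of *Hbq1b*, in a region of both Vec lists only, held 13 with 0.66. The median over 16456 promoters of the table, 1 per gene, was 14 CGs.

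A start inside a narrow region could be looked up for 286 promoters of the RefSeq table, with 1 promoter used per gene. The table holds 20084 promoters of 16456 protein-coding genes of chromosomes 1 to 19, and none for the 14 regions of chromosome 18. The median GC content of the 286 was 62.7% (quartiles 57% and 67.7%), against 56.7% (48.3% and 64.7%) over all 16456. The median ratio of observed over expected CG was 0.84 against 0.59. A ratio of at least 0.6, the usual limit for a CpG island, was reached by 244 of the 286 (85.3%) and by 49.0% of all promoters. Of the 272 promoters in regions of 2 kb or less 87.9% reached it, and of the 14 in larger regions 35.7% did. The share was 83.8% and 83.3% for the Vec libraries and 86.4% and 87.6% for the Cre libraries, so that the 4 lists lay within a few percentage points of each other. Since the lists hold only regions above the threshold of a peak caller, and GC-rich DNA is sequenced and aligned unlike other DNA, these shares are a description without a test. The part of GC content in calling was not tested.

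**Figure D1:**
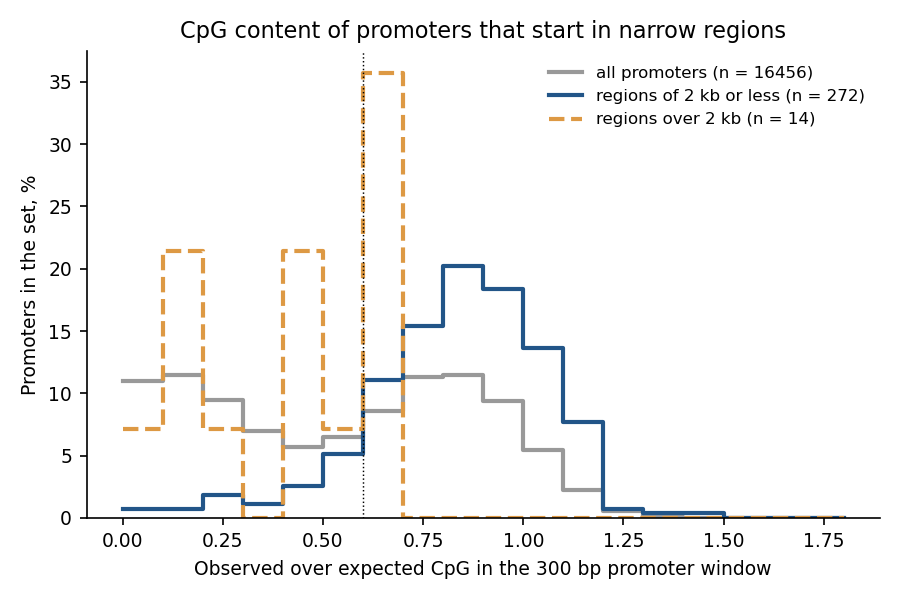
Distribution of the observed over expected CG ratio (x axis, no unit) in 300 bp promoter windows, as a percentage of the promoters in each set (y axis), for 16456 promoters (grey), 272 promoters that start in regions of 2 kb or less (blue) and 14 in larger regions (orange, dashed). The grey line has a low and a high group, and the blue line lies mostly above the dotted limit of 0.6, with a median of 0.85.

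Short sequence motifs were counted on both strands of the same windows, and none of the strings contains another. GGGCGG, the GC box bound by Sp1-type factors, was in 72.7% of the 286 promoters and in 46.9% of all. TATAAA, the core of the TATA box, was in 3.50% against 13.5%. CCAAT was about as common in both, at 40.6% and 38.9%. Of 3 strings typical of housekeeping starts, GCATGCGC (NRF1-type) was in 8.04% against 3.62%, ACTTCCGG (ETS-type) in 10.8% against 5.35%, and AAGATGGC (YY1-type) in 6.64% against 3.24%. CACGTG, the E-box, was in 12.9% against 7.85%. The palindrome CCCNNGGG, the core that EBF proteins bind, was in 21.0% against 15.7%. Most of these strings are GC-rich, as are the windows, and a match is not a bound site.

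A known gene start was covered by 236 of the 371 (63.6%), 61 more had a start within 3 kb, 17 lay only at the other end of a gene, and for 57 no start was in the table. Over the 297 regions with a start, the centre lay a median of 44.5 bp downstream of the nearest start, and 92.3% were within 1 kb of it. The rule accepted both ends of a gene and anything within 3 kb, and it did not use strand. Starts on both strands lay in 55 of the 236 regions that covered a start (23.3%), as at *Hdlbp* and *Septin2*, at *Cdc26* and *Prpf4*, and at *Hadha* and *Hadhb*, the subunits of the mitochondrial trifunctional protein. In windows of the median width of the regions, centred on each of the 16456 starts, this was so for 9.40%.

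**Figure D2:**
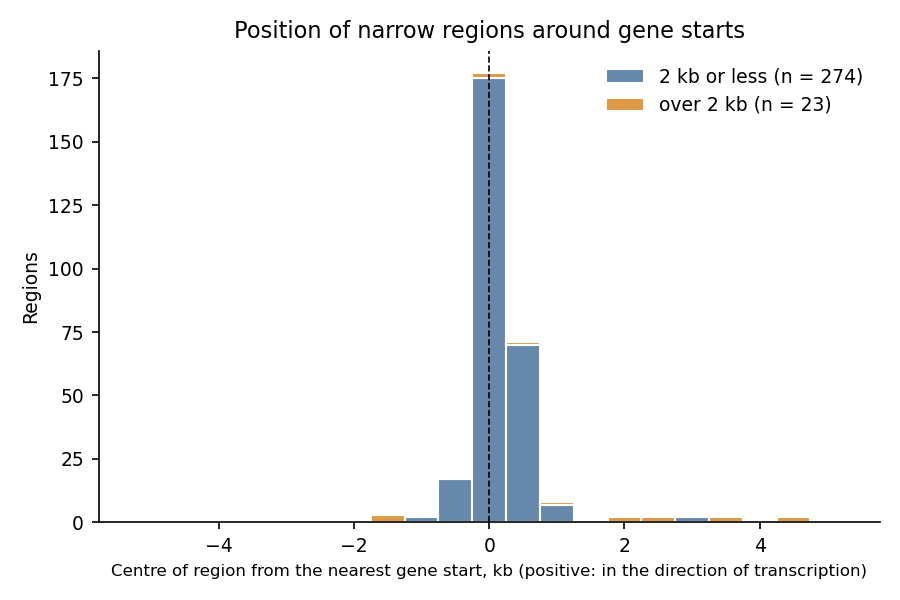
Number of narrow regions (y axis) by the distance of their centre from the nearest gene start in kb (x axis, positive in the direction of transcription), in bins of 0.5 kb, for 274 regions of 2 kb or less and 23 larger ones. The tallest bar stands at the start, and 1 larger region falls outside the plotted range.

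Size split the regions into a large and a small class. Of the 371, 333 were 2 kb wide or less, with a median width of 1053 bp (quartiles 990 and 1172 bp), and 38 were wider, up to 9525 bp. The smallest peak anywhere in the 4 lists was 964, 1015, 967 and 918 bp, so the typical region was near the shortest that these lists hold. Among all narrow autosomal regions, 67.8% of the 491 regions of 2 kb or less lay at gene ends, and 16.8% of the 226 larger ones. In the small class 67.0% covered a start and 3.60% lay at predicted Gm-numbered genes or olfactory and vomeronasal receptors. Of those with a start in the table, 98.2% had their centre within 1 kb of it. In the large class these shares were 34.2%, 23.7% and 21.7%, and the genes included *Vmn2r41*, *Vmn2r45*, *Olfr247*, *Gm3993* and *Gm8909*, from families of near-identical copies in which short reads can be placed wrongly. The next paragraphs keep the classes apart where it matters.

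Members near the limits of the rule were not of 1 kind. *Adam1b* (9525 bp, Vec replicate 1) and *Nxnl1* with *Tmem221* (9425 bp, Cre replicate 1) lay just inside the width limit, and *Gm45935* with *Phf11c* (10091 bp) and *Zfp983* (10094 bp) just outside it. At the distance limit, *Vmn2r41* (2874 bp from an end) and *Vmn2r31* (2906 bp) were inside, and *Adcyap1r1* (3250 bp) and *Slc13a5* (3305 bp) outside. Each of these 8 regions was in 1 list.

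The number of narrow gene-end regions differed several-fold between libraries of the same cells. Vec replicate 1 had a peak in 180 of the 371 and Vec replicate 2 in 36. Cre replicate 1 had a peak in 65 and Cre replicate 2 in 240. Both groups therefore held 1 rich and 1 poor library, and the groups overlapped. The Vec mean was 108 ± 102 and the Cre mean 152.5 ± 124 (SD, n = 2 each), a log2 ratio (Cre to Vec) of 0.50. Presence in these lists chose the regions, so the numbers are described without a test. The direction rested on single libraries: the log2 ratio was -0.25 without Vec replicate 2 and -0.74 without Cre replicate 2, and 1.95 without Vec replicate 1. The complete lists, with 836, 646, 673 and 902 peaks, differed less, and the regions made up 21.5%, 5.57%, 9.66% and 26.6% of them. Depth is unknown, since the lists carry no read counts, and its part in these numbers was not tested. When the 232 best-scoring narrow autosomal peaks of each list were taken, the regions numbered 144, 36, 60 and 150. Vec replicate 2 held 232 such peaks in all, so its list was not cut.

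**Figure D3:**
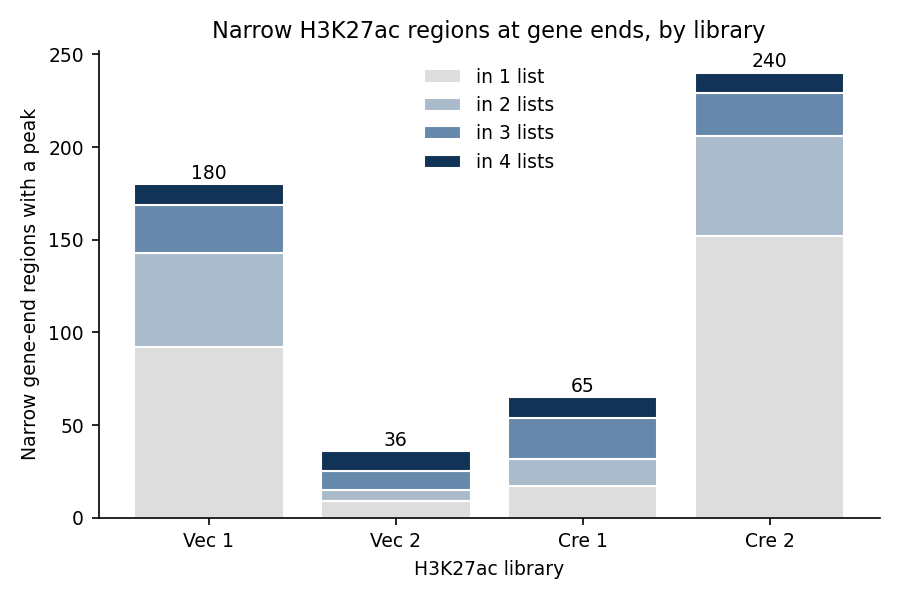
Number of the 371 narrow gene-end regions with a peak in each H3K27ac library (y axis), with bar segments for regions found in 1, 2, 3 or 4 of the lists. Vec 1 and Cre 2 reach 180 and 240, mostly through regions that no other list held, while Vec 2 and Cre 1 reach 36 and 65.

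Length and gene number followed the same order. Peaks covered 259.7 and 66.8 kb of the regions in Vec and 104 and 309 kb in Cre, 163 ± 136 kb against 207 ± 145 kb (SD, n = 2 each; log2 ratio 0.34). This was at most 0.297% of the length of any list, most of which lies in wide peaks. Regions with a peak lay within 3 kb of an end of 239 and 46 protein-coding genes in Vec and 78 and 298 in Cre. The means were 142.5 ± 136 and 188 ± 156 (SD, n = 2 each, log2 ratio 0.40). Both log2 ratios turned negative without Vec replicate 2 (-0.38 and -0.37) and without Cre replicate 2 (-0.62 and -0.87). Together the 4 lists reached 466 of the 20661 protein-coding genes of chromosomes 1 to 19 (2.26%).

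Peaks in the regions were short and low in every library. Their median width was 1076 and 1188 bp in Vec and 1073 and 1032.5 bp in Cre, 1132 ± 79.2 against 1053 ± 28.6 bp (SD, n = 2 each; log2 ratio -0.10). The fold, the ratio of a peak to the background of the caller averaged over the peak, had medians of 1.59 and 1.76 in Vec and 1.73 and 1.68 in Cre, with ranges of 1.26 to 2.42, 1.40 to 2.97, 1.45 to 2.60 and 1.34 to 2.88. The group means were 1.68 ± 0.124 and 1.71 ± 0.0355 (SD, n = 2 each; log2 ratio 0.03). The sign of this difference turned without Vec replicate 1, to -0.11. The rank of the fold within the list was computed as well. It depends on what else a list holds, and peaks of 2 kb or less made up 32.3% and 15.2% of the Vec lists and 22.1% and 42.6% of the Cre lists, so it is no correction for depth. The median peak in the regions ranked at the 15.0 and 5.26 percentile of its list in Vec and the 6.69 and 18.8 percentile in Cre, a difference of 2.60 points that became -2.66 without Vec replicate 2 and -3.26 without Cre replicate 2. Wide autosomal regions had median folds of 2.56, 2.82, 2.93 and 2.80 in the same 4 lists, and narrow regions away from gene ends 1.67, 1.94, 1.91 and 1.85. In all 4 lists the gene-end regions thus had the lowest median of these kinds.

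Most regions were found once. One list only held 270 of the 371 (72.8%), 63 were in 2 lists, 27 in 3 and 11 in all 4 (2.96%). Of all 1208 merged regions 25.4% were in all 4 lists, of the wide autosomal ones 65.3%, and of the narrow ones away from gene ends 6.65%. Cre replicate 2 alone held 152 regions and Vec replicate 1 alone 92, and a further 43 were in these 2 lists and no other. Of the 36 regions of Vec replicate 2, 23 were in Vec replicate 1, 17 in Cre replicate 1 and 19 in Cre replicate 2, and of the 65 regions of Cre replicate 1, 37 were in Vec replicate 1 and 38 in Cre replicate 2. The 2 rich lists shared 76 regions, 42.2% of Vec replicate 1 and 31.7% of Cre replicate 2. The number that 2 lists can share is limited by the smaller list, so no order was read from these shares.

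Regions in all 4 lists had higher median −log10 q-values than those in 1 list. In Vec replicate 1 the median −log10 q-value was 3.44 for the 92 regions in that list alone and 5.56 for the 11 in all 4, and in Cre replicate 2 it was 2.81 for 152 regions and 4.20 for the same 11. The median folds in 1, 2, 3 and 4 lists were 1.59, 1.57, 1.64 and 1.50 in Vec replicate 1 and 1.92, 1.786, 1.92 and 1.53 in Vec replicate 2. In Cre replicate 1 they were 1.83, 1.71, 1.77 and 1.56, and in Cre replicate 2 1.66, 1.75, 1.74 and 1.59. In each of the 4 libraries the regions in all 4 lists had the lowest median fold. Median region width was 1039.5 bp in 1 list and 1357 bp in all 4, which follows in part from the merging. A start was covered by 62.6% of the regions in 1 list, 66.7% in 2, 55.6% in 3 and by 10 of the 11 in all 4.

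Of the 11 regions in all 4 lists, that of *Casp8*, the initiator protease of death receptor signalling, had the best mean rank of fold. It lay at chr1:58795012-58796251 and had folds of 2.11 and 2.24 in Vec and 2.02 and 2.36 in Cre, so the groups overlapped. The uncharacterized gene *2610001J05Rik* (chr6:13870679-13872198) had 1.95 and 2.16 in Vec and 2.0 and 2.21 in Cre. *Ube3a* (chr7:59228285-59229583), a ubiquitin ligase, had 1.82 and 1.83 in Vec and 1.67 and 2.01 in Cre, with the Cre values on either side of the Vec values. *Rnf4* (chr5:34335795-34337061), a ubiquitin ligase for SUMO-modified proteins, had 1.51 and 1.61 in Vec and 1.61 and 1.76 in Cre. The promoter between *Hdlbp*, an RNA-binding protein, and *Septin2*, a cytoskeletal GTPase, at chr1:93478032-93479388 had 1.50 and 1.64 in Vec and 1.51 and 1.68 in Cre. None of these 5 separated Vec from Cre.

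Folds of both Cre libraries lay above those of both Vec libraries in 5 of the 11, against 17.6% of the 307 merged regions of any kind in all 4 lists, and below them in 0 of the 11, against 20.5%. By rank within the list, which differs with the make-up of the lists as given above, 0 of the 11 lay above and 0 below, against 11.1% and 8.79% of the 307. *Pde12* (chr14:26668602-26669909), a mitochondrial RNA-degrading enzyme, had folds of 1.42 and 1.45 in Vec and 1.54 and 1.53 in Cre. *Zbtb20* (chr16:42874876-42876270), a zinc finger repressor, had 1.47 and 1.43 in Vec and 1.51 and 1.55 in Cre. The histone gene *H4c14* (chr3:96263006-96264477) had 1.51 and 1.45 in Vec and 1.56 and 1.56 in Cre. At the translation termination factor *Gspt1* (chr16:11253289-11254552) the lower Cre fold was 1.47 and the higher Vec fold 1.44. At the starts of *Aida* and *Brox* (chr1:183297036-183299403) these were 1.5322 and 1.5318. *Caprin1* (chr2:103796192-103797885), an RNA-binding protein of stress granules, had the lowest fold of the 11, 1.35 for Vec replicate 1, beside 1.53 for Vec replicate 2 and 1.49 for both Cre libraries. These separations are small differences in the deposited ratio and carry no test.

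**Figure D4:**
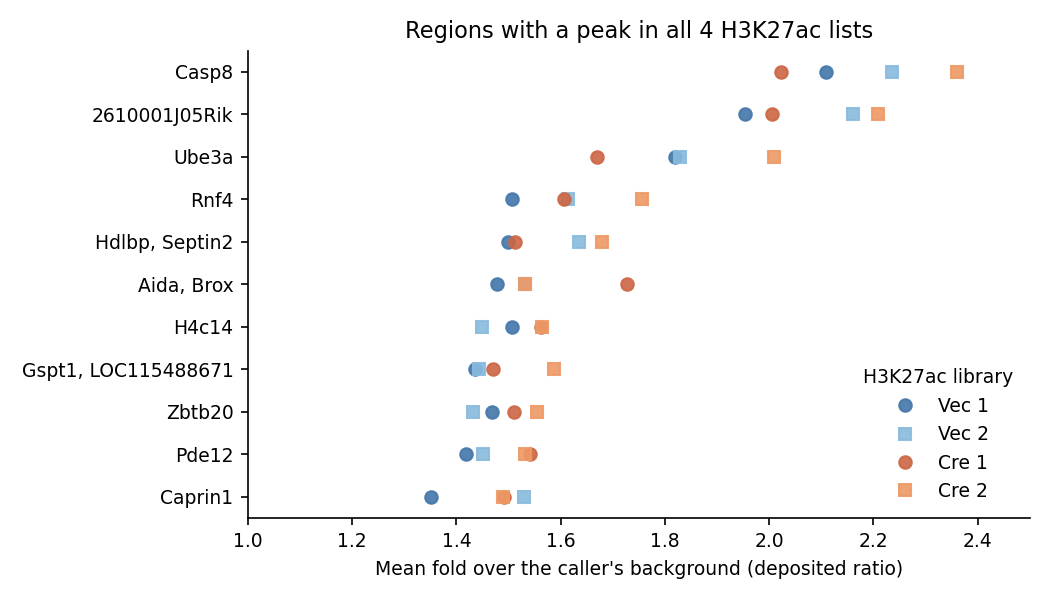
Deposited fold over the caller's background (x axis, a ratio) of the 11 narrow gene-end regions with a peak in all 4 H3K27ac lists, 1 line per region and 1 symbol per library. *Casp8* spans 2.02 to 2.36 and *Caprin1* 1.35 to 1.53, and within each line the Vec and Cre symbols lie close together.

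Regions that both Vec libraries and no Cre library held numbered 3 (0.809%, against 3.06% of all merged regions). *Ppp4r3b* (chr11:29172504-29173555), a regulatory subunit of protein phosphatase 4, had folds of 2.13 and 2.03 with −log10 q-values of 20.4 and 8.25, the best score of any narrow gene-end region in both lists. *Acap2* (chr16:31199930-31201109), a GTPase-activating protein for Arf proteins, had 1.42 and 1.46 with −log10 q-values of 2.15 and 1.23. The third lay in the α-globin cluster (chr11:32286685-32294696), over the start of *Hbq1b* and within 3 kb of an end of *Hba-a1* and of *Hba-a2*. It had 1.67 and 1.93 with −log10 q-values of 1.36 and 1.36. The globin region in both lists, and that of *Acap2* in Vec replicate 2, were near the weakest peaks that these lists hold. Those had −log10 q-values of 1.07 and 1.10.

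Regions that both Cre libraries and no Vec library held numbered 9 (2.43%, against 1.41%). *Ascc3* (chr10:50591901-50593007), a helicase of DNA repair and ribosome rescue, ranked first with folds of 1.71 and 1.88 and −log10 q-values of 5.13 and 8.56. *Rel* (chr11:23770224-23771290), an NF-κB subunit, had 1.58 and 1.92. *Uspl1* (chr5:149183849-149185014), a SUMO protease, had 1.59 and 1.70. The shared promoter of *Cdc26*, a subunit of the anaphase-promoting complex, and *Prpf4*, a splicing factor, at chr4:62408030-62409157 had 1.65 and 1.51. The others were *Kpna4* (1.73 and 1.70), a nuclear import receptor, *Trpm7* (1.58 and 1.64), an ion channel with a kinase domain, *Cldn18* (1.96 and 2.18), a tight junction protein, *Cd59a* (1.99 and 1.97), an inhibitor of complement, and *Rasa1* (1.54 and 1.59), a Ras GTPase-activating protein. Of the 9, 7 were under 2 kb, and those at *Cldn18* and *Cd59a* were 3743 and 4088 bp. The −log10 q-values were lowest at *Rasa1* (1.43 and 1.86), *Cldn18* (1.50 and 2.52), *Cd59a* (1.70 and 1.65) and *Trpm7* (1.90 and 2.78). The weakest peaks of the 2 Cre lists had 1.07 and 1.04. The values were 2.69 and 7.61 at *Rel*, 2.87 and 4.73 at *Uspl1*, 4.55 and 3.08 at *Cdc26* with *Prpf4*, and 3.44 and 3.30 at *Kpna4*.

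Both counts moved with the libraries. Leaving out 1 library, so that presence in the only remaining library of its group was enough, gave 7 to 98 regions in Vec only and 11 to 161 in Cre only, with 98 without Vec replicate 2 and 161 without Cre replicate 1, the poor libraries of each group. Presence in either replicate gave 104 Vec-only and 178 Cre-only regions. A region absent from a list may still carry acetylation below the threshold, which the lists do not show.

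Markers of the cells themselves were missing from the regions. Of 12 brown adipocyte markers (*Ucp1*, *Cidea*, *Dio2*, *Prdm16*, *Ppargc1a*, *Pparg*, *Ebf2*, *Elovl3*, *Cox8b*, *Cox7a1*, *Adrb3* and *Zic1*) 0 had a narrow region, and likewise 0 of 8 general adipocyte markers such as *Adipoq*, *Fabp4* and *Plin1*, and 0 of 8 preadipocyte and fibroblast markers such as *Pdgfra*, *Col1a1* and *Vim*. None of these 28 genes had an H3K27ac peak of any width or an EBF2 peak within 3 kb of an end either, so the labelled cell type could not be checked from the lists. Markers of macrophages (5), endothelium (5), skeletal muscle (6), liver (4) and neurons (4) had 0 narrow regions as well, and 1 of them, *Serpina1a*, had a wider one. At the rate of all genes, lists this short would hold few genes or none. Of 23 adipogenic transcription factors 1 was reached (4.35%, beside 2.26% of all genes), *Gabpa*, an ETS factor of nuclear genes for mitochondrial proteins, whose divergent promoter with the ATP synthase subunit *Atp5j* (chr16:84834511-84835521) had a fold of 1.50 in Cre replicate 2 alone.

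Of 49 lipid metabolism genes 2 were reached (4.08%, against 2.26% of all genes), *Hadha* and *Hadhb* of mitochondrial fatty acid oxidation, through the same region (chr5:30154620-30155655, fold 1.73 in Cre replicate 2 alone). Of 46 actin cytoskeleton genes 1 was reached (2.17%), *Wasf1*, a subunit of the WAVE complex that shares a promoter with *Cdc40* (chr10:40882865-40883802, fold 1.87 in Cre replicate 2 alone). None of 18 genes of cysteine and sulfur metabolism and none of 20 immediate early genes had a region.

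Gene families defined by symbol patterns had between 1 and 15 genes with a region. Chaperones had 7 of 82 (8.54%), RNA splicing and binding proteins 6 of 68 (8.82%), aminoacyl-tRNA synthetases 3 of 37 (8.11%), nuclear subunits of oxidative phosphorylation 5 of 84 (5.95%), and Ras and Rab GTPases with their partners 6 of 104 (5.77%). Ubiquitin conjugation followed with 4 of 99 (4.04%), the proteasome with 2 of 50 (4%), cytosolic ribosomal proteins with 3 of 80 (3.75%), cell cycle and replication with 3 of 83 (3.61%), translation factors with 2 of 68 (2.94%) and mitochondrial ribosomal proteins with 2 of 78 (2.56%). Histone genes had 1 of 79 (1.27%), *H4c14*. The share over all genes was 2.26%. Symbol patterns also take in a few genes of other roles, and the shares were not tested.

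Most of these regions were in 1 or 2 lists. The RNA-binding protein *Hnrnpk* (chr13:58401976-58403222) had folds of 1.37 in Vec replicate 1 and 1.62 in Cre replicate 2. The glutamyl-prolyl-tRNA synthetase *Eprs* (chr1:185362710-185363708) had 1.63 in Vec replicate 1 and 1.82 in Cre replicate 2. The ubiquitin-conjugating enzyme *Ube2d2a* had 1.59 in Vec replicate 1 and 1.62 and 1.74 in Cre. Among subunits of oxidative phosphorylation, *Ndufb1* of complex I (1.92) and *Atp5pb* of ATP synthase (1.62) were in Cre replicate 2 alone, and *Ndufb3* (1.37) and *Atp5l* (1.61) in Vec replicate 1 alone. Vec replicate 2 held a peak at *H4c14* and at the ribosomal protein gene *Rps27a* (1.83, in that list alone) and at no other gene named in this paragraph.

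Among the chaperones, *Hspa4*, *Hsp90b1*, *Dnajb6* and *Dnajb11* had regions of 1032 to 1221 bp, and those at the Hspa1 locus were larger. A region of 6401 bp around *Hspa1a* and *Hspa1l* (chr17:34964411-34970811), the inducible HSP70 gene and its testis-type neighbour, had folds of 1.54 in Vec replicate 1 and 1.58 and 1.44 in Cre, and EBF2 peaks with folds of 1.48 in Vec replicate 1 and 1.71 in Cre replicate 1. *Hspa1b* beside it (chr17:34959472-34961551) had an H3K27ac fold of 1.45 in Cre replicate 1 alone and an EBF2 fold of 2.41 in Vec replicate 1. *Hspa1a* and *Hspa1b* are nearly identical in sequence, so reads may be split between them.

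Zinc finger genes had the highest median fold in each list among the families with at least 2 regions there. With 15 of 455 genes (3.30%) in 17 regions, their median folds were 1.96, 2.01, 2.09 and 2.02 in the 4 lists, against 1.59, 1.76, 1.73 and 1.68 for all narrow gene-end regions. *Zfp560* (chr9:20384714-20385873) had 2.33 in Vec replicate 1 and 2.60 and 2.63 in Cre. The region over the start of *Zfp426* nearby (chr9:20492406-20493554) had 2.01, 1.80 and 2.16 in the same lists. It also lay within 3 kb of an end of *Zfp266*, whose start in the promoter table is elsewhere. *Zfp932* (chr5:109996197-109997475) had 1.94 and 2.24 in Vec and 2.24 in Cre replicate 1. *Zfp369* had 2.01 in Vec replicate 2 and 2.08 and 2.09 in Cre. The Cre value of *Zfp932* was within the range of its Vec values, and *Zfp560* and *Zfp369* had only 1 Vec value. These genes belong to clusters of similar copies.

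Solute carriers, with 10 of 362 genes (2.76%), were near the share of all genes. *Slc31a1*, the copper importer, with *Fkbp15* (chr4:62360259-62361296), had folds of 1.80 in Vec replicate 1 and 1.78 and 1.95 in Cre, and *Slc30a7*, a zinc transporter of the Golgi, with *Extl2* (chr3:116007021-116008125), had 1.64 and 1.67 in Vec and 1.76 in Cre replicate 1. *Slc33a1*, an acetyl-CoA transporter, had 1.86 in Vec replicate 1 and 1.88 in Cre replicate 2, in a region also within 3 kb of an end of *Gmps*. Predicted Gm-numbered genes had 15 of 965 (1.55%). Olfactory and vomeronasal receptors had 4 of 1458 (0.274%), the lowest share of the families that had any.

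EBF2 peaks, which the choice of the regions did not use, overlapped few of them. At least 1 of the 4 EBF2 lists had a peak in 22 of the 371 (5.93%), against 37.3% of all merged H3K27ac regions. The latter include wide autosomal regions, with a median width of 47081 bp and a share of 77.2%. Narrow regions away from gene ends had 19.9%, at a median width of 2237 bp against 1073 bp for the 371. Any overlap counted, so a wider region has more room for one, and the part of width was not tested. By EBF2 library the number of the 371 with a peak was 11 and 2 in Vec and 13 and 8 in Cre. The means were 6.5 ± 6.36 and 10.5 ± 3.54 (SD, n = 2 each), and the groups overlapped (log2 ratio 0.69, two-sided exact permutation test, p = 0.667). With groups of 2 libraries this exact test gives no p under 0.33. Without EBF2 Vec replicate 2, which held 533 peaks against 660 to 724 in the other lists, the log2 ratio was -0.067. Peaks of EBF2 Cre replicate 1 are named after the adipose knockout mouse, while its label gives BAC, and the label was followed. Without this library the log2 ratio was 0.30.

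Overlap with EBF2 differed between the size classes. Of the 333 regions of 2 kb or less 8 had an EBF2 peak (2.40%), and of the 38 larger ones 14 (36.8%). The median widths were 1053 and 4104.5 bp, and a longer region has more room for an overlap. The classes also differed in the share at Gm-numbered or receptor genes (3.60% and 23.7%). The part of length in the overlap was not tested. Narrow regions away from gene ends were overlapped more often in each of the 4 EBF2 libraries, at 9.39% ± 4.57 against 2.29% ± 1.29 at gene ends (SD, n = 4), a difference of 7.10 percentage points (exact sign-flip permutation test over libraries, two-sided, p = 0.125, the smallest possible). Among regions of 2 kb or less the difference was 3.36 ± 1.42 points, in the same direction in 4 of 4 libraries, and among larger regions it was -1.96 ± 1.51 points, in the opposite direction in 4 of 4 (SD, n = 4; exact sign-flip permutation test, p = 0.125 for each). Among regions of 2 kb or less the counts were small. In the 2 Vec and 2 Cre EBF2 libraries they were 4, 0, 4 and 2 of 333 at gene ends. Away from gene ends they were 6, 3, 10 and 7 of 158. The sizes were separated after the data were seen.

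**Figure D5:**
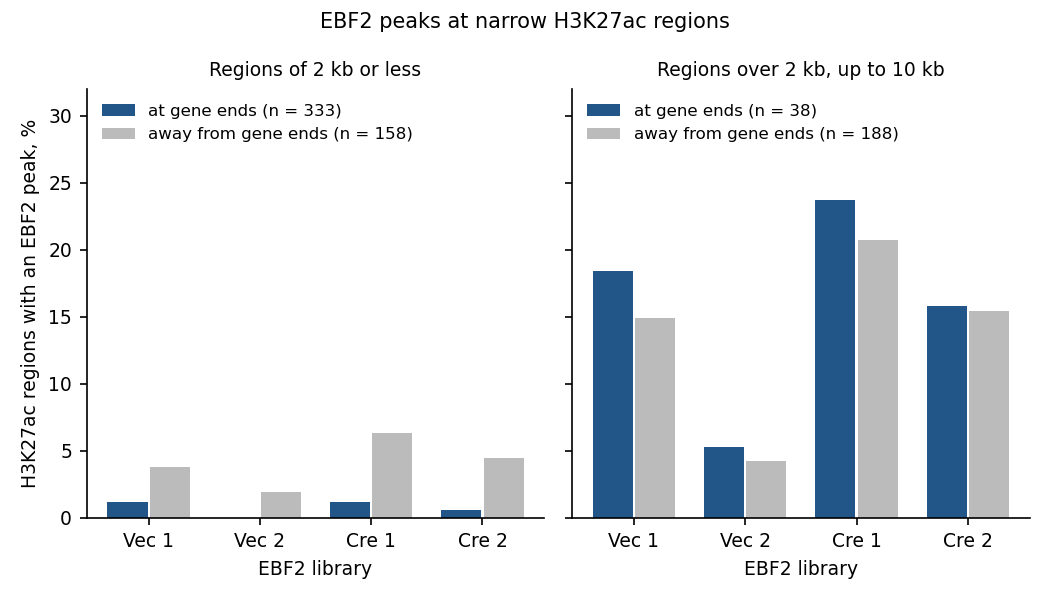
Percentage of narrow H3K27ac regions with a peak in each EBF2 library (y axis), at gene ends (blue) and away from them (grey), for regions of 2 kb or less (left) and larger ones (right). On the left the blue bars reach at most 1.20% and are the lower of each pair, and on the right they reach 23.7% and are the higher.

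The 22 regions with EBF2 included 3 of the 11 that were in all 4 H3K27ac lists. *Casp8* had an EBF2 peak in Cre replicate 1 (fold 2.48), *2610001J05Rik* in Cre replicate 2 (2.63), and *H4c14* in Vec replicate 1 and Cre replicate 1 (2.1 and 2.2). *Hrnr*, a gene of the epidermal differentiation cluster with a long repeated coding sequence, had a region of 6752 bp (chr3:93324325-93331076) with H3K27ac folds of 2.33 and 2.97 in Vec and 2.38 in Cre replicate 1, and EBF2 folds of 2.83 in Vec replicate 1 and 2.91 and 2.76 in Cre. *Gm3325* (chr13:62015700-62016997) had H3K27ac folds of 2.30 in Vec replicate 1 and 2.34 in Cre replicate 2 and EBF2 folds of 2.75 in Vec replicate 1 and 3.35 in Cre replicate 1. The epidermal plakin *Eppk1*, *Thada*, the choline transporter *Slc44a1* and *Gm51598* each had an EBF2 peak in 1 list. Of the 3 regions in both Vec lists only and the 9 in both Cre lists only, 0 had an EBF2 peak in any list, beside 5.93% of the 371, a share at which 12 regions would hold fewer than 1.

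Chromosomes carried between 0.567 regions per 100 protein-coding genes, on chromosome 19 with 4 regions, and 3.46, on chromosome 3 with 34. Chromosome 1 had 32 regions and chromosome 9 had 30. More than 1 gene end lay near 98 of the 371 regions, 92 with 2 genes and 6 with 3.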

How the data were processed

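The members and gene lists were chosen with earlier results of these data known. The authors deposited 1 peak list per library. Per the labels, bcl2fastq 2.17, Trimmomatic 0.33, HISAT2 2.2.1, MACS2 2.2.7 and mm10 were used. Thresholds, duplicates and control library are not given in the sources used here. The deposited fold is a ratio to the caller's background, the deposited score is 10 times the −log10 q-value, and the authors also gave −log10 p-values. In the H3K27ac lists these are means over a peak. Depth is unknown.

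Peaks of the 4 H3K27ac lists were merged at an overlap of at least 1 bp and set beside the RefSeq genes of GRCm38.p6. Starts and strands came from the RefSeq promoter table and covered 17491 of 21896 protein-coding gene entries. No list had more than 1 peak in a region. EBF2 overlap was compared between libraries by exact permutation tests. The permutation tests planned for the number, length, genes, width, fold and rank of the regions draw on what chose them and are not printed. Named regions were the 10 best-ranked in all 4 lists, those in 1 group only, 10 with EBF2, up to 4 genes per family, and those nearest the limits. Other genes were named after their values were seen, and 1 gene that the rule names is not reported here. The functions found the set regions on simulated lists. Python 3.11.15, numpy 2.4.6, pandas 2.3.3 and matplotlib 3.10.9 were used. Alternatives covered threshold, merging, overlap, width, distance, gene set, equal peak numbers, a replicate block and each library left out.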

Additional observations from a re-analysis of the deposited data

How the results depend on the processing

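Peak lists show no acetylation under the caller's threshold, and groups of 2 libraries cannot pass a threshold of 0.05. Under a stricter score (at least 27) there were 230 regions, 1 in Vec only, 5 in Cre only and 5 in all 4 lists. A width limit of 20000 bp gave 6 in Vec only and 18 in all 4, and turned the log2 ratio of fold to -0.013 and the rank difference to -0.13 points, as did all annotated genes (-0.0054 and -0.75). Regions from either replicate gave 104 Vec-only and 178 Cre-only regions. Leaving out each library in turn, log2 ratios ranged from -0.74 to 1.95 for regions, -0.62 to 1.29 for length, -0.87 to 1.91 for genes, -0.18 to -0.03 for width, -0.11 to 0.10 for fold and -0.067 to 2.39 for EBF2 overlap, and the rank difference from -3.26 to 8.72 points. The counts ranged from 223 to 365 regions, 7 to 98 in Vec only, 11 to 161 in Cre only, and 14 to 28 in every remaining list. The cause was not tested.

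Vec and Cre share replicate numbers, but the labels do not say that a number marks a shared culture or batch. The correlation of same-numbered deviations over the 371 regions was 0.24. Each region had to be in a list, and what this selection adds to the correlation was not measured. With a replicate block, the log2 ratios were 0.63 for regions, 0.45 for length, 0.54 for genes, -0.10 for width, 0.03 for fold and 1.12 for EBF2 overlap (for EBF2 overlap, exact sign-flip permutation test over 2 pairs, p = 0.5, the smallest possible). Under the other alternatives, peaks and regions of 2000 bp or less included, which was added after the data were seen, each log2 ratio kept its sign and each count stayed within 1.5 times.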
